A study of Arabidopsis thaliana with 32 samples.

Results

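The chloroplast genome of Arabidopsis thaliana contributed 88 of the 27655 loci in the deposited tables, taken as all loci whose identifier begins with ATCG. They were followed across shoot and root, total RNA and ribosome-bound RNA, and medium with and without magnesium. All plants carried the transgene p35s:HF-RPL18, a tagged protein of the cytosolic ribosome driven by the 35S promoter, and grew hydroponically for 6 weeks in 10 h light and 14 h dark. For 1 day they were then kept in medium in which sodium sulfate replaced magnesium sulfate (MgD) or in normal medium (CK). Ribosomes captured through the tag gave the RNA called TRAP here, and TRIzol extraction gave total RNA, so that tissue, RNA type and treatment form 8 groups of 3 libraries.

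The chloroplast genome encodes core subunits of both photosystems, of the cytochrome b6f complex, of the ATP synthase and of the NADH dehydrogenase-like complex, the large subunit of Rubisco, and part of the chloroplast's own ribosome and RNA polymerase. Its messages are made and translated inside the plastid by plastid ribosomes, to which RPL18 of the cytosolic ribosome does not belong. Most plastid messages lack the long poly(A) tail of nuclear messages, and the libraries were made with a kit for mRNA, so these levels describe what entered such libraries and not the whole plastid RNA pool.

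The reference used here lists no ATCG identifiers. Symbols were therefore assigned by matching the gene length implied by the files to chloroplast genes of the RefSeq annotation (TAIR10.1) and by gene order, which named 86 loci with 78 symbols. By role the loci were 15 psb genes (photosystem II), 5 psa genes (photosystem I), 6 pet genes (cytochrome b6f), 6 atp genes, 12 ndh genes, rbcL, 15 rps and 11 rpl genes (small and large ribosomal subunit), 4 rpo genes (RNA polymerase) and 13 others, among them matK, clpP, accD and the ycf genes. Loci in the inverted repeat occur in 2 copies of the same sequence, and how reads were split between copies is uncertain. ATCG00870 and ATCG01270, which could not be named, had 0 counts in all 24 libraries.

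Neighbouring genes also overlap, which matters because several of the highest members are such pairs. The junctions follow, read 5′ to 3′ on the coding strand from RefSeq TAIR10.1, with capitals for bases that belong to both coding parts. The psbD and psbC genes share 53 bases (Pltd:33708-33784, plus strand), atpB and atpE share 4 bases (Pltd:52648-52675, minus strand), and rpl22 and rps3 share 16 bases (Pltd:83455-83494, minus strand).
psbD and psbC: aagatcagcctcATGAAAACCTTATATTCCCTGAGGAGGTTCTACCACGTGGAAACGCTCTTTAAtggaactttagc
atpB and atpE: taaattgaagaaATGAccttaaatcttt
rpl22 and rps3: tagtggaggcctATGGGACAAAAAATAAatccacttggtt
Each capital stretch starts with the ATG of the downstream gene. The sources do not state how reads over such bases or on either strand were counted, so values within a pair of neighbours may share reads.

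Library totals ranged from 6147531 to 41472378 counts. The 6 green-tissue markers (RBCS1A, LHCB1.1, LHCB3, RCA, CA1 and GAPA) summed to between 44315 and 54700 TPM in shoot libraries and between 194 and 1028 TPM in root libraries, and the 6 root markers summed to at most 3.72 TPM in shoot and at least 115 TPM in root, as the tissue labels say. Nothing in the labels says that replicates came from separate cultures, so the p-values may reflect technical spread only. In bulk RNA, fewer plastids or green cells cannot be told apart from less RNA per plastid. All shoot TRAP libraries carry another lane label than all other libraries, so in shoot the lane and the RNA type cannot be told apart.

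In shoot, chloroplast-encoded genes took several percent of the total RNA libraries and almost none of the TRAP libraries. Their share of counts was 0.00342%, 0.00342% and 0.0104% in shoot TRAP MgD, and 0.00766%, 0.00624% and 0.00391% in shoot TRAP CK. It was 3.92%, 5.24% and 4.52% in shoot total MgD, and 4.37%, 5.42% and 4.29% in shoot total CK. No TRAP library came near a total RNA library, and the mean shares on the log2 scale differed by 863-fold (exact two-sided permutation test, 6 against 6 libraries, p = 0.00216, the smallest that 924 arrangements allow).

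In root the same direction was found with a smaller fold. The share was 0.00624%, 0.00495% and 0.00493% in root TRAP MgD, and 0.0165%, 0.0119% and 0.00611% in root TRAP CK. In root total MgD it was 0.108%, 0.112% and 0.164%, and in root total CK 0.156%, 0.165% and 0.159%. TRAP and total libraries did not overlap, and the fold between them was 18.8 (exact two-sided permutation test, p = 0.00216, the smallest possible). Whether the fold differs between tissues was not tested. For Root Total MgD replicate 3 the 2 deposited tables hold different reads, and the reads behind its TPM column gave a share of 0.149%.

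**Figure D1:**
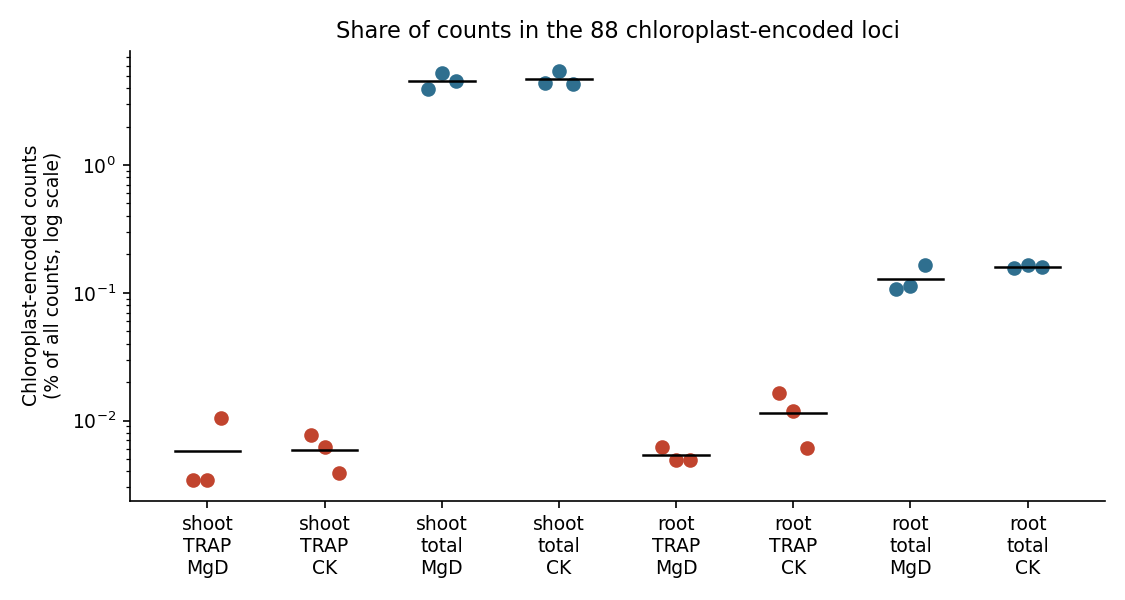
Share of all counts in the 88 chloroplast-encoded loci (%, log scale) for each library, in red for TRAP and blue for total RNA, with the group mean as a bar. Shoot total RNA lies between 3.92% and 5.42%, root total RNA between 0.108% and 0.165%, and all TRAP libraries of both tissues between 0.00342% and 0.0165%.

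Root differed from shoot in total RNA by 32.4-fold, lower in root (exact two-sided permutation test, 6 against 6 libraries, p = 0.00216, the smallest possible). In TRAP RNA the root share was 1.42-fold higher, the libraries of root and shoot overlapped, and the exact two-sided permutation test gave p = 0.232.

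Mitochondria-encoded genes, the other organelle genome, were also lower in TRAP RNA, but by less than the chloroplast-encoded counts. The ratio of chloroplast to mitochondrial counts was 6.44 to 15.0 in shoot TRAP and 189 to 245 in shoot total libraries, a 23.9-fold difference (exact two-sided permutation test, 6 against 6, p = 0.00216). In root the ratio was 0.770 to 2.09 in TRAP and 2.31 to 4.85 in total libraries, a 2.95-fold difference (exact two-sided permutation test, p = 0.00216). Against the summed counts of 37 nuclear genes for partner subunits of the same complexes, the chloroplast counts were 668-fold lower in TRAP than in total RNA of shoot and 39.3-fold lower in root (exact two-sided permutation tests, p = 0.00216 each).

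Levels of single genes are given in TPM, which divides by gene length, so that genes can be set side by side. In shoot total RNA under CK, 5 genes held 73.2% of the chloroplast-encoded TPM. They were atpE (26649 ± 2770 TPM, SD, n = 3) and atpB (19513 ± 2386 TPM), 2 subunits of the catalytic part of ATP synthase, psaJ (16134 ± 760 TPM), a small subunit of photosystem I, rpl32 (15355 ± 3049 TPM), a protein of the large plastid ribosomal subunit, and psbM (11841 ± 1687 TPM), a small subunit of photosystem II. The ranges of atpE and atpB did not overlap, while psaJ overlapped rpl32 and rpl32 overlapped psbM. Then came ndhJ at 5101 TPM, ndhK at 4601 TPM, psbD at 3218 TPM, ndhC at 3049 TPM and psbC at 2262 TPM. Over all 88 loci, 10 of the steps between neighbours in this order were free of overlap between the 3 libraries of each.

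The highest members of each class in shoot total CK show how unequal the classes are inside (mean TPM, n = 3). Under the atp pair came atpI, a membrane subunit of the ATP synthase, at 305 ± 62.7 TPM, and below psaJ came psaI at 44.7 ± 6.65 TPM and psaB at 29.8 ± 11.4 TPM. The pet genes were led by petA, for cytochrome f, at 140.0 ± 20.9 TPM, with petN at 80.4 ± 13.6 TPM and petD at 45.2 ± 10.9 TPM. The rps genes were led by rps3 at 557 ± 269 TPM, and rps14 had 427 ± 90.6 TPM. The rpl genes after rpl32 were led by rpl16 at 1875 ± 772 TPM and rpl14 at 1375 ± 609 TPM. The rpo genes, for subunits of the plastid RNA polymerase, were led by rpoA at 239 ± 70.1 TPM, with rpoB at 21.6 ± 3.76 TPM and rpoC2 at 13.8 ± 1.75 TPM. Among the other genes clpP had 517 ± 40.9 TPM, matK, for an intron maturase, 135 ± 38.0 TPM, and cemA 120.0 ± 20.1 TPM. In root total CK the leading genes were atpE, rpl16 at 621 ± 89.1 TPM, rpl32 at 583 ± 226 TPM and psbM at 521 ± 254 TPM.

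The genes of 2 of the most abundant chloroplast-made proteins stood far down this order. The psbA gene, for the D1 protein of photosystem II, had 94.9, 134 and 88.6 TPM in shoot total CK. The rbcL gene, for the large subunit of Rubisco, had 99.3, 119 and 101 TPM in the same libraries. Both overlapped each other and lay far under the 5 leading genes.

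Within shoot total RNA, neighbouring ribosomal protein genes varied widely between libraries of 1 group. The rpl16 gene had 2566, 1633 and 2236 TPM in MgD and 984, 2352 and 2288 TPM in CK. Its neighbour rps3 had 878, 398 and 680 TPM in MgD and 246, 699 and 725 TPM in CK. In both genes replicate 1 was the lowest CK library and replicate 2 the lowest MgD library, and the groups overlapped.

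In TRAP RNA the order of the means was another one, though psaJ, psbM and rpl32 stood high in both. In shoot TRAP CK psbA led with 49.9, 36.9 and 19.8 TPM. Then came psaJ at 22.1 TPM, psbM at 12.0 TPM, rpl32 at 10.9 TPM and rbcL at 10.4 TPM on average. The range of psbA overlapped that of psaJ (14.3 to 35.2 TPM), and all neighbours in the shoot TRAP CK order overlapped. The gene that led total RNA, atpE, had 2.51, 3.52 and 2.58 TPM there, and atpB had 2.53, 1.74 and 1.29 TPM. In root TRAP CK atpE led with 120, 62.2 and 52.8 TPM. In root total CK it led with 859, 679 and 708 TPM, and in both it overlapped the next gene.

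**Figure D2:**
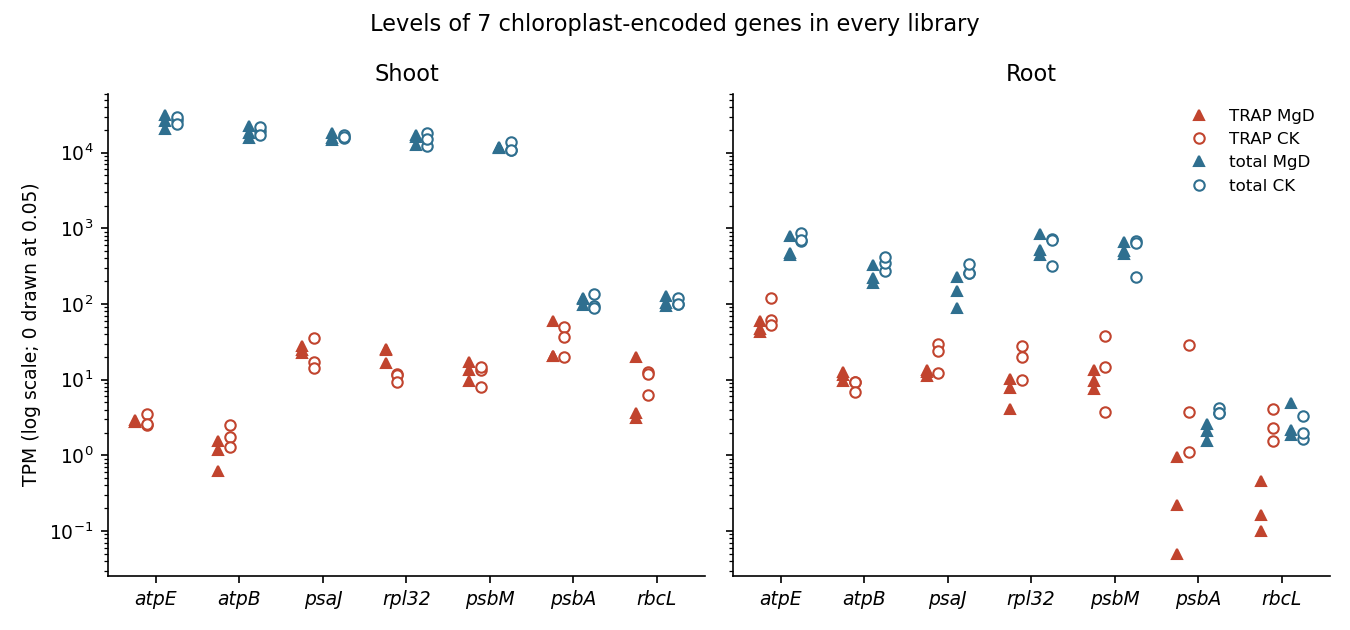
TPM on a log scale of 7 chloroplast-encoded genes in every library of shoot (left) and root (right), with TRAP in red and total RNA in blue, MgD as filled triangles and CK as open circles, and values of 0 drawn at 0.05. In shoot total RNA atpE to psbM lie at 10832 TPM or above and psbA and rbcL lie near 100 TPM, while in shoot TRAP RNA psbA is the highest of the 7 on average.

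The make-up of the chloroplast-encoded counts, which does not depend on how many such counts a library holds, differed between RNA types in both tissues. In shoot the psb genes took 53.2% ± 3.08 of these counts in TRAP and 13.3% ± 0.767 in total RNA (SD, n = 6 each). The rbcL gene alone took 13.6% ± 3.85 in TRAP and 0.241% ± 0.0355 in total RNA, the psa genes took 10.8% ± 0.753 and 3.60% ± 0.180, and the pet genes 2.60% ± 1.03 and 0.286% ± 0.0119. In the other direction, the atp genes took 7.39% ± 1.55 in TRAP and 61.2% ± 2.60 in total RNA, and the ndh genes 2.45% ± 0.448 and 10.6% ± 0.230. TRAP and total libraries did not overlap in any of these 6 classes (exact two-sided permutation test, adjusted over 10 classes in both tissues, p = 0.00541 each). By TPM the psa class did not pass (adjusted exact p = 0.0613). The other genes took 3.45% ± 1.07 in TRAP and 1.67% ± 0.336 in total RNA (adjusted exact p = 0.00541), the rpo genes 1.23% ± 0.479 and 0.625% ± 0.125, and the rps genes 0.969% ± 0.411 and 1.89% ± 0.570 (adjusted exact p = 0.0186 each). The rps and rpo classes did not pass by TPM (adjusted exact p = 0.130 and 0.491), and rpo and the other genes did not without the member with the most counts (adjusted exact p = 0.533 and 0.377). The rpl genes did not pass by counts (adjusted exact p = 0.0812). Within these classes psbA took 38.5% ± 4.75 of the chloroplast counts in shoot TRAP CK, and atpB took 44.7% ± 2.05 in shoot total CK (SD, n = 3).

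In root fewer classes separated TRAP from total RNA, though the contrast was not tested between tissues. The rpl genes took 17.8% ± 3.14 in TRAP and 23.1% ± 1.64 in total RNA (SD, n = 6, adjusted exact p = 0.00866), and the other genes, led by ycf1 in root total RNA, took 7.42% ± 1.34 and 17.9% ± 2.14 (adjusted exact p = 0.00541). By TPM the other genes differed by 0.272 points in the opposite direction, which did not pass (adjusted exact p = 0.374). By counts, only in the class of other genes did root TRAP and root total libraries not overlap. The psa, pet, psb and rbcL classes took more in root TRAP than in root total RNA (adjusted exact p = 0.00866, 0.0108, 0.0289 and 0.0108), with psb at 12.1% ± 7.49 and 6.38% ± 0.886. The psb difference was 5.75 points and became 2.86 points without root TRAP CK replicate 2, in which psbA had 29.0 TPM against 3.71 and 1.11 TPM in the other root TRAP CK libraries. By TPM the psb and pet classes no longer passed (adjusted exact p = 0.877 and 0.0512). The psb class also no longer passed without any 1 of the root total libraries (adjusted exact p up to 0.0947), and rbcL no longer passed without any 1 of these except MgD replicate 3 (up to 0.0649). The atp, ndh, rps and rpo classes did not pass the test in root by counts. The atp class passed by TPM (9.32 points higher in TRAP, adjusted exact p = 0.0108), without its member with the most counts (12.9 points, adjusted exact p = 0.00787) and without root TRAP CK replicate 2 (8.79 points, adjusted exact p = 0.0433), and rpo passed without root TRAP MgD replicate 3 (1.13 points, adjusted exact p = 0.0298).

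**Figure D3:**
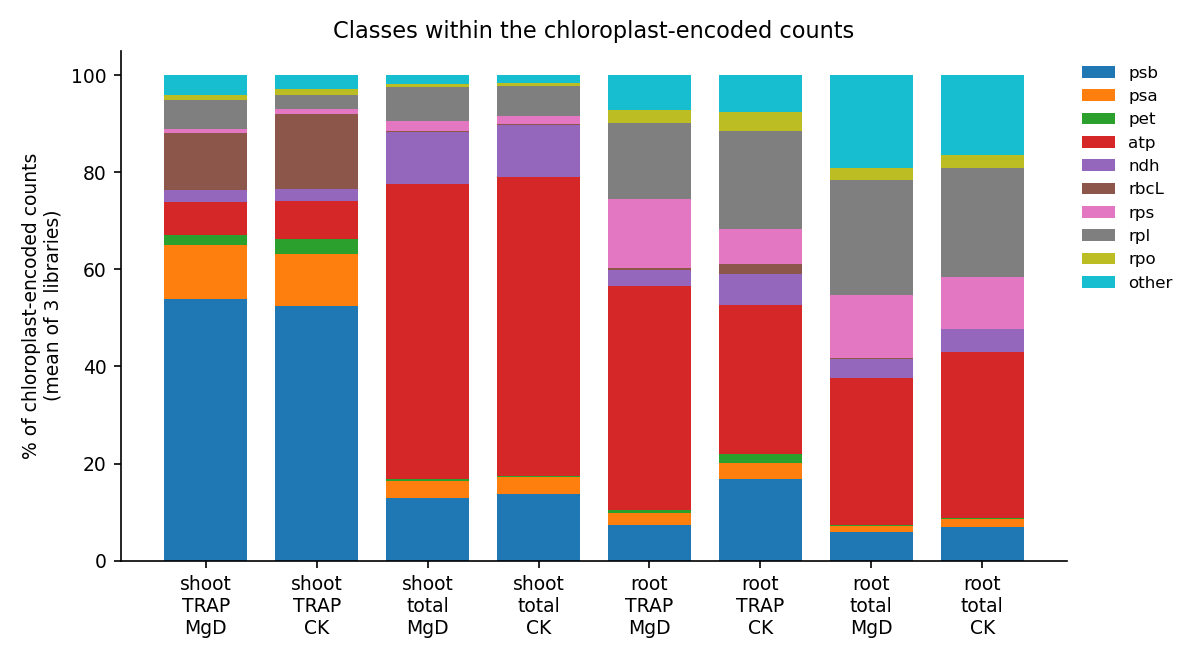
Mean percent of the chloroplast-encoded counts taken by each class of genes, stacked to 100%, for the 8 groups of 3 libraries. In shoot the psb genes make up most of the TRAP bars and the atp genes most of the total RNA bars, at 53.2% and 61.2% over both treatments, and in root the rps and rpl genes take a visible part of every bar.

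Gene by gene, the fit over all genes in shoot (edgeR quasi-likelihood test, Benjamini-Hochberg adjustment) tested 82 of the 88 loci, the others having too few counts. Under CK all 82 were lower in TRAP than in total RNA and none was higher, with a median log2 change of -8.54, where 23.6% of all genes tested were called lower, 21.3% higher and 44.9% in either direction, and the median over all genes was -0.03. Under MgD it was again 82 lower and 0 higher, with a median of -8.46, where 23.7% of all genes were called lower and 45.8% in either direction. A member with few TRAP counts passed the filter through its total RNA counts alone and so had to differ, and these counts are a description. Under CK the TRAP and total libraries overlapped for none of the 82 loci. The share of all genes free of overlap is not given here, so this too is a description.

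The differences in shoot spanned a wide range. The smallest was that of psbA, which had 49.9, 36.9 and 19.8 TPM in TRAP CK and 94.9, 134 and 88.6 TPM in total CK, a log2 change of -1.67 ± 0.50 (SE, edgeR adjusted p = 0.0250). The rbcL gene had 12.8, 12.0 and 6.34 TPM in TRAP CK and 99.3, 119 and 101 TPM in total CK, a log2 change of -3.45 ± 0.69. The ndhE and petL genes, with 11 and 8 TRAP counts in all, lay between these. Among other genes of photosynthesis were petN, a small cytochrome b6f subunit, at -4.38 ± 0.59, and psaB, a core protein of photosystem I, at -4.50 ± 0.63. None of these groups overlapped.

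At the other end stood ndhC, a subunit of the NADH dehydrogenase-like complex, with 5 counts in TRAP CK and 47227 counts in total CK over 3 libraries each (log2 change -13.64 ± 0.39). The pair atpB and atpE followed at -13.43 ± 0.39 and -13.28 ± 0.25, with 167 and 66 counts in TRAP against 1251793 and 455194 counts in total RNA. The rps19 gene, for a protein of the small plastid ribosomal subunit, had 0 counts in TRAP and 3495 in total CK. Taking 3 counts over the group as the floor makes it at least 1832-fold lower. Most small counts were even in every library, so minimum folds from this floor may be too large. Under MgD the large falls included those of atpB (-14.08 ± 0.40), with 117 TRAP counts, and of rps19, which had 0 TRAP counts and was at least 2524-fold lower. Between these ends lay psbM at -10.01 ± 0.22, rpl32 at -10.54 ± 0.25, psaJ at -9.56 ± 0.32, clpP, a subunit of the plastid Clp protease, at -8.35 ± 0.34, and rpoB, a subunit of the plastid RNA polymerase, at -7.35 ± 0.27.

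By class, the median log2 change in shoot under CK was -3.45 for rbcL, -4.58 for the 6 pet genes, -5.36 for the 5 psa genes, -6.98 for 11 ndh genes, -6.99 for the 15 psb genes, -7.99 for the 6 atp genes, -8.04 for the 4 rpo genes, -8.29 for 8 other genes, -9.78 for the 15 rps genes and -10.54 for the 11 rpl genes. Of the nuclear genes for partner subunits, 18 of 37 were lower and 3 higher in shoot TRAP, with a median of -0.28, led by PSBX, a photosystem II subunit, at -2.01 ± 0.13. Of 27 nuclear genes for plastid gene expression, 8 were lower and 1 higher, with a median of -0.22. All 37 of 122 mitochondria-encoded loci that could be tested were lower, with a median of -5.75.

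Set relative to the chloroplast-encoded total instead of all genes, 30 members were higher and 12 lower in shoot TRAP under CK. Adjustment over all genes changed p little on that scale (clpP 0.0326 before and 0.0328 after, edgeR). These calls are therefore close to unadjusted ones, and the share of all genes called is not given here. On that scale psbA was at 7.82 and rbcL at 6.05, while atpB was at -3.94 and ndhC at -4.24 (log2).

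In root, 63 of the 88 loci could be tested. Under CK 43 were lower in TRAP and 1 was higher, with a median of -2.80, where 25.5% of all genes were called lower and 22.6% higher. Under MgD 53 were lower and 0 higher, with a median of -3.87, where 28% of all genes were called lower and 24.5% higher. Among members with a mean of at least 1 log2 CPM, the large falls under CK included the ribosomal protein genes rpl14 at -5.97 ± 0.45, rps3 at -5.58 ± 0.32 and rpl22 at -5.57 ± 0.46. Under MgD the 4 largest were rps3 (-8.59 ± 0.41), rpl14 (-8.28 ± 0.54), rpl36 (-8.19 ± 0.86, on 1 TRAP count) and rpl22 (-6.61 ± 0.50).

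The rpl16 gene had 22.7, 21.8 and 15.4 TPM in root TRAP CK and 601, 718 and 543 TPM in root total CK, a log2 change of -4.46 ± 0.21. The atp pair fell too, atpB at -4.84 ± 0.24 and atpE at -2.75 ± 0.35, without overlap between TRAP and total. The single locus called higher was the rpl2 copy ATCG01310, with 4.25, 10.7 and 3.50 TPM in TRAP CK and 0.551, 1.44 and 2.65 TPM in total CK (2.46 ± 0.64, edgeR adjusted p = 0.00762), named here after its value was seen. Its identical second copy, ATCG00830, did not pass (edgeR adjusted p = 0.113), and reads from sequence that the 2 copies share cannot be told apart.

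Under CK the psbA, rbcL and psaB genes did not pass the test in root, while psaJ and psbM were lower in root TRAP at -3.19 ± 0.36 and -4.28 ± 0.57. The psbA gene had 3.71, 29.0 and 1.11 TPM in root TRAP CK and 4.28, 3.66 and 3.67 TPM in root total CK, a change of 1.99 ± 0.93 that turned to -0.14 without root TRAP CK replicate 2. The rbcL gene had 4.05, 2.28 and 1.55 TPM in TRAP CK and 1.63, 2.0 and 3.31 TPM in total CK (0.70 ± 0.51). The psaB gene was at 0.64 ± 0.84, and at -0.06 without root TRAP CK replicate 2. Under MgD rbcL was called lower in root TRAP (-2.97 ± 0.63, edgeR adjusted p = 0.00180). The psbA gene (-1.90 ± 1.22) and psaB (-2.16 ± 1.06) were also below 0 under MgD but did not pass. Of the 37 nuclear partner genes, 27 were higher and 3 lower in root TRAP under CK, with a median of 1.06.

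**Figure D4:**
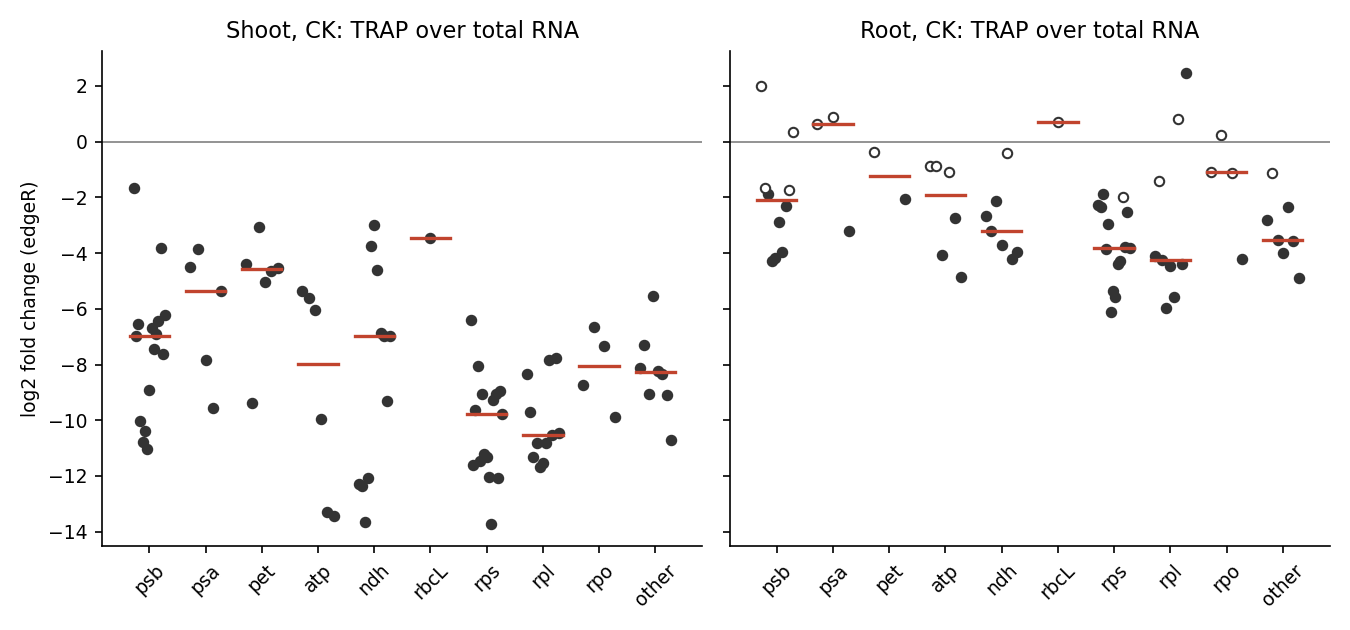
Log2 fold change of TRAP over total RNA under CK for each tested chloroplast-encoded locus by class, in shoot (left, 82 loci) and root (right, 63 loci), filled where the adjusted p was under 0.05 and with the class median as a red bar. All shoot points are filled and below 0, the highest being psbA at -1.67, and in root the psa and rbcL medians lie above 0 at 0.64 and 0.70.

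Root and shoot were compared directly under CK in a model of all 24 libraries, in which 82 loci were tested. In total RNA 75 were lower in root and 0 higher, with a median of -4.83 (log2), where 31.1% of all genes were called lower, 33.6% higher and 64.8% in either direction, and the median over all genes was 0.07. Of the 82 loci, 19 do not pass the filter on low counts in the root model. They entered through their shoot counts, which favours a lower value in root, and 18 of them were called lower. Of the other 63, 57 were lower, with a median of -4.60, and these counts are a description. The 4 largest falls were those of psbD (-7.21 ± 0.62), ndhJ (-7.16 ± 0.48), psbC (-7.15 ± 0.65) and ndhK (-6.97 ± 0.44). The psaJ gene was at -6.68 ± 0.36, atpB at -6.65 ± 0.32, rbcL at -6.35 ± 0.64, atpE at -5.97 ± 0.34 and psbA at -5.62 ± 0.81.

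Class medians varied, which was not tested between classes. The median was -3.19 over the 15 rps genes, -3.38 over 11 rpl genes, -4.07 over the 4 rpo genes and -4.17 over 11 ndh genes, and -6.24 over the 15 psb, -6.26 over the 5 psa, -5.46 over the 6 pet and -6.04 over the 6 atp genes. The rps3 gene was at -2.51 ± 0.34 and rpl16 at -2.43 ± 0.26. Relative to the chloroplast-encoded total, 30 members were higher and 6 lower in root. On that scale rpl20 was at 5.02, ycf1 (ATCG01130) at 4.71, rpl16 at 3.14 and rps3 at 3.05. Adjustment over all genes changed p little there (rpoB 0.0416 before and 0.0436 after, edgeR). These calls are therefore close to unadjusted ones, and the share of all genes called is not given here.

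A few members did not pass the test between root and shoot. The rpl20 gene had 344, 78.1 and 34.8 TPM in root total CK and 150, 122 and 111 TPM in shoot total CK (-0.48 ± 0.73), with the highest value in a single root library. The ycf1 locus ATCG01130 had 66.8, 79.4 and 62.2 TPM in root and 34.7, 89.1 and 88.6 TPM in shoot (-0.86 ± 0.54). Root and shoot libraries overlapped in both genes. The 37 nuclear partner genes were all lower in root, with a median of -6.99, and 26 of 27 nuclear genes for plastid gene expression were lower, with a median of -3.16.

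In TRAP RNA under CK, 32 of the 82 members tested were higher and 15 lower in root than in shoot. Of all genes, 35.9% were called higher, 32.9% lower and 68.8% in either direction. The members called higher stood near that background and those called lower under it, and these counts are a description. In a fit of only these 2 groups, 35 members were tested, of which 17 were higher and 3 lower. The shares above do not belong to that fit, and the share of all genes called in it is not given here. By the same minimum, the rises were led by the rpl2 copies ATCG01310 (218 counts in root and 0 in shoot, at least 102-fold higher) and ATCG00830 (103 and 0 counts, at least 48.2-fold), rpl20 (629 and 3 counts) and rps15 (31 and 0 counts, at least 14.5-fold). The atpE gene was at 4.53 ± 0.36. The falls were led by psbH, atpH, petD and psbL, each with 6 or fewer counts in root, and rbcL and psbA were at -2.25 ± 0.58 and -1.97 ± 0.70. Shoot TRAP libraries stood on another lane than root TRAP libraries, and the part of the lane in this comparison cannot be told apart from that of the tissue.

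Withdrawal of magnesium for 1 day called no chloroplast-encoded gene in the edgeR models of 12 libraries per tissue, in either tissue or RNA type. No gene of the whole table was called in these models either, so 0% of all genes stands beside each of these counts. A model of all 24 libraries called 3 members in root TRAP, and the share of all genes called in that model is not given here. The counts that follow are from the models per tissue. Members with an unadjusted p under 0.05 numbered 0 of 82 in shoot total RNA, where 1.84% of all genes did so, and 6 of 82 in shoot TRAP, where 7.41% did. They numbered 7 of 63 in root total RNA, where 2.48% of all genes did so, and 27 of 63 in root TRAP, where 11.2% did. DESeq2 called 1 member higher in shoot TRAP, where it called 0.0362% of all genes higher, and none in total RNA of either tissue. In root TRAP it called 9 of the 41 members that had an adjusted p lower, where it called 0.624% of all genes lower.

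The share of chloroplast-encoded counts differed by 1.03-fold in shoot total RNA, 1.15-fold in shoot TRAP, 1.28-fold in root total RNA and 1.99-fold in root TRAP, each lower in MgD by counts. In shoot TRAP the direction turned by TPM (0.0875, log2) and without MgD replicate 1 (0.0624), MgD replicate 2 (0.0643) or CK replicate 1 (0.00625). In shoot total RNA it turned without MgD replicate 1 (0.0599) or CK replicate 2 (0.0642). None of these passed (exact two-sided permutation tests, p = 0.800, 0.800, 0.300 and 0.200, where 3 against 3 libraries cannot go below 0.1), and MgD and CK libraries overlapped in all 4. In shoot total RNA the median over members was -0.07. A single locus was free of overlap between MgD and CK, and the share of all genes free of overlap is not given here. For atpE the values were 20770, 31059 and 26486 TPM in shoot total MgD and 26760, 29362 and 23825 TPM in shoot total CK.

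Of the 4 MgD comparisons, root TRAP RNA had the median furthest from 0, a log2 change of -1.33 over 63 members. Of these, 57 were below 0, while the median over all genes was -0.01. The share of all genes below 0 is not given here. Members of 1 library share its chloroplast-encoded total, so their values are not independent. Relative to that total no member was called (smallest edgeR adjusted p = 0.0873). On that scale rbcL was at -2.43 and rps3 at -2.35, while rps14 was at 1.79 and atpB at 1.32 (log2). For rbcL the levels were 0.46, 0.16 and 0.10 TPM in MgD and 4.05, 2.28 and 1.55 TPM in CK (log2 change -3.44 ± 0.62, adjusted p = 0.289 in edgeR and 0.000319 in DESeq2). For rps3 they were 0.20, 0.54 and 0 TPM in MgD and 2.78, 3.09 and 1.90 TPM in CK (-3.25 ± 0.49, adjusted p = 0.289 in edgeR and 0.000226 in DESeq2). The psbC gene, for the CP43 protein of photosystem II, had 0.553, 0.166 and 0.308 TPM in MgD and 4.11, 2.36 and 1.57 TPM in CK (-2.98 ± 0.63). In these 3 genes the groups did not overlap, with 16, 8 and 22 counts in MgD against 161, 73 and 162 counts in CK over 3 libraries each.

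Both psbB and psbA, photosystem II genes outside the rule for named genes, were below 0 as well and were chosen after their values were seen. The psbB gene, for the CP47 protein, had 0.859, 0.967 and 1.15 TPM in MgD and 9.46, 3.30 and 3.18 TPM in CK (-2.46 ± 0.51), and psbA had 0, 0.22 and 0.96 TPM in MgD and 3.71, 29.0 and 1.11 TPM in CK (-4.84 ± 1.16). In shoot TRAP the largest difference by p was that of rpl32, with 25.5, 16.4 and 24.8 TPM in MgD and 12.1, 11.5 and 9.30 TPM in CK (0.99 ± 0.23, adjusted p = 0.507 in edgeR and 0.0452 in DESeq2).

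The make-up of the root TRAP counts is given by treatment as ranges over 3 libraries. The atp genes took 45.3% to 46.9% of the chloroplast-encoded counts in MgD and 25.1% to 37.4% in CK, the rps genes 11.7% to 16.2% and 5.63% to 8.05%, and the psb genes 5.83% to 8.78% and 11.7% to 26.6%. MgD and CK did not overlap in these classes nor in the pet, ndh, rbcL and rpl classes, and overlapped in the psa, rpo and other classes. These shares were not tested, since 3 against 3 libraries cannot pass.

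Green-tissue markers in root were low in both treatments. The summed green-tissue markers were 400 to 730 TPM in root TRAP MgD and 460 to 1028 TPM in root TRAP CK, and 194 to 483 TPM in root total MgD and 545 to 676 TPM in root total CK. Their part in the root values was not tested. Among the 24 mitochondria-encoded loci tested in root TRAP, 0 were called and the median was -1.07, and among the 37 nuclear partner genes 0 were called and the median was -0.15.

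The response to magnesium withdrawal in TRAP minus that in total RNA was not called for any member in shoot or root in edgeR, with 5 and 12 members at an unadjusted p under 0.05, where 3.95% and 4.77% of all genes were. DESeq2 called rbcL and rps3 lower in root, where it called 0.0197% of all genes lower, and none in shoot. The response in root minus that in shoot was called for 0 of 82 members in total RNA and 0 of 82 in TRAP RNA in edgeR, where 0.0236% and 0% of all genes were called. At an unadjusted p under 0.05 there were 2 and 15 members, where 2.75% and 10.9% of all genes were. DESeq2 called none in total RNA, and psbA, psbC, rps3 and rpl32 lower in root in TRAP RNA, where it called 0.299% of all genes lower.

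**Figure D5:**
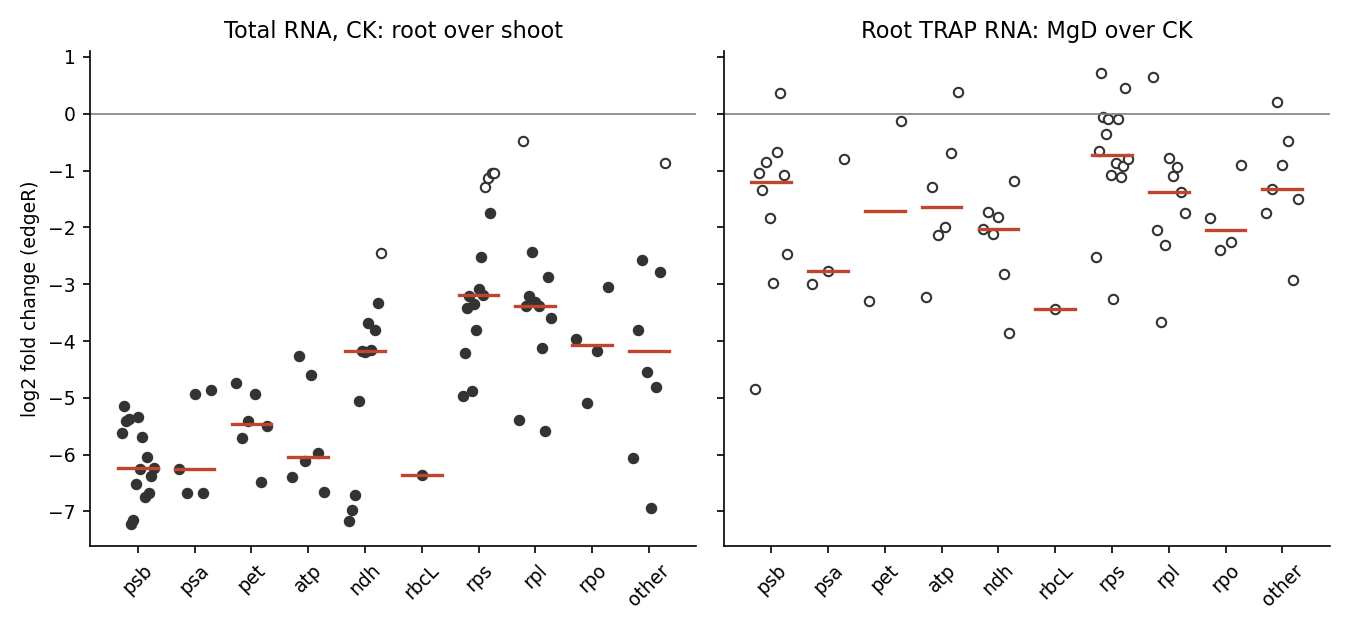
Log2 fold change of each tested chloroplast-encoded locus by class, for root over shoot in total RNA under CK (left, 82 loci) and for MgD over CK in root TRAP RNA (right, 63 loci), filled where the adjusted p was under 0.05 and with the class median as a red bar. On the left the rps and rpl medians, at -3.19 and -3.38, lie above those of the psb and psa genes, at -6.24 and -6.26, and on the right no point is filled.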

How the data were processed

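RNA of 24 libraries was analysed, 3 in each of 8 groups given by the sample titles, and 8 further samples whose labels mark them as removed were not analysed here. Libraries were made with the KAPA mRNA HyperPrep Kit, per the labels' protocols. FastQC, Trimmomatic, STAR 2.7.6a and Subread 2.0.0 are named in the submitters' processing notes, with no settings, and the genome build of the counting is not stated. The deposited count table holds raw counts per gene as made by the authors, without normalization. The deposited TPM table holds values as made by the authors, scaled by gene length and library.

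Genes were tested on the counts with edgeR 4.0.16 in R 4.3.3 (TMM scaling, filterByExpr, robust quasi-likelihood test, Benjamini-Hochberg adjustment at 0.05), in 1 model of 12 libraries per tissue, or of all 24 libraries between tissues, with p-values adjusted over all genes tested. The same code was tested on simulated counts with known changes. Shares and ratios per library were compared with exact permutation tests. Where a whole group had 0 counts, its summed count was set to a floor of 3, a limit for counting error alone. Of the counts above 0 and under 50, 81.5% to 92.2% were even in each library. Small counts may therefore not be independent single counts, and the minimum folds from that floor may be too large. The cause was not tested. DESeq2 1.42.0, limma 3.58.1 and other settings were alternatives.

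The members and lists were chosen with earlier results of these data known. Genes named are the 3 highest of each class in shoot total CK, the 4 largest rises and falls called per comparison at a mean of at least 1 log2 CPM, and those said in the text to have been chosen after their values were seen; some genes that meet this rule are not reported here. The genes psbA, rpl20, ycf1 and rpl2, and psbB, fall outside this rule in some comparisons and were chosen after their values were seen. Libraries were not treated as paired, since no set of same-numbered libraries had all its correlations above 0.1. That rule cannot show that pairing is absent. By original library number the median correlation was 0.154 in shoot and 0.218 in root, against -0.065 and -0.032 for other pairs. The 2 tables agreed in 23 libraries. In Root Total MgD replicate 3 they did not: 6147531 counts stand in one, while 11727584 reads lie behind the TPM values.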

Additional observations from a re-analysis of the deposited data

How the results depend on the processing

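Each count of calls, named gene, share and class share was recomputed under other scalings, tools, filters, library sets and without each library in turn. With library totals set to the chloroplast-encoded counts, the members called numbered 42 and 46 for TRAP against total RNA in shoot (CK and MgD), 28 and 26 in root, 36 for root against shoot in total RNA and 1 for the root minus shoot response in TRAP. On that scale these changes were above 0 (log2): in shoot TRAP against total CK psbA 7.82, rbcL 6.05, petN 5.26, psaB 4.97, rpoB 2.32 and clpP 1.37, in root TRAP against total CK atpE 0.59, and in root against shoot total RNA rpl20 5.02, ycf1 (ATCG01130) 4.71, rpl16 3.14 and rps3 3.05. That scale is by construction relative to the other members. For TRAP against total RNA under CK and for root against shoot in total RNA, adjustment over all genes changed p little there. Those calls are close to unadjusted ones. DESeq2 called 1 member for MgD in shoot TRAP, 9 in root TRAP, 2 for the root response of TRAP minus total and 4 for the root minus shoot response in TRAP, and 1 model of all 24 libraries called 3 for MgD in root TRAP. With only the 2 groups compared, 20 members were called between root and shoot TRAP. The shares of all genes called in these last 2 fits are not given here.

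The change of psaB in root TRAP against total CK was -0.50 with the replicate block by original library number, -0.01 with limma on log2(TPM + 1) and -0.37 on log2(TPM + 0.1), and that of ycf1 (ATCG01130) between root and shoot was 0.09 with both. The block by replicate number moved no count of calls by over 1.5 times. Leaving out 1 library at a time gave 0 to 2 members for the root minus shoot response in TRAP (2 without root TRAP CK replicate 3), -0.14 to 2.53 for psbA and -0.06 to 1.2 for psaB in root TRAP against total CK (the lowest without root TRAP CK replicate 2), and -2.09 to 0.01 for rpl20 between root and shoot. The share under MgD ranged from -0.74 to 0.0643 in shoot TRAP and from -0.15 to 0.0642 in shoot total RNA (log2), and was 0.0875 in shoot TRAP by TPM.

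By TPM, class shares of TRAP minus total differed by 3.93 points for psa, -0.886 for rps and 0.0711 for rpo in shoot, none of which passed, and by 0.408 for psb, 0.571 for pet, 9.32 for atp (passed), 1.49 for rps, -0.183 for rpo and 0.272 for other genes in root. Without the member with the most counts they were -7.45 for rpl (passed), 0.146 for rpo and 0.559 for other genes in shoot, and 12.9 for atp in root (passed). Without 1 library they ranged from 4.44 to 8.79 for atp, 2.86 to 7.01 for psb, 0.892 to 1.32 for rbcL and 0.517 to 1.13 for rpo in root, and from -3.07 to -1.90 for rpl in shoot. The atp class passed without root TRAP CK replicate 2, rpo without root TRAP MgD replicate 3 and rpl without shoot TRAP MgD replicate 1. The cause of these differences was not tested. TRAP libraries held 978 to 3577 chloroplast-encoded counts, which limits the precision of single genes there.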
